A study of Homo sapiens with 6 samples.

Results

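The 10 genes described here were the epithelial-mesenchymal transition (EMT) transcription factors SNAI1, SNAI2, SNAI3, ZEB1, ZEB2 and TWIST1, the classical cadherins CDH1, CDH2 and CDH3, and the intermediate filament gene VIM. They were taken by gene name from an expression table of 27605 genes, and all 10 had a row. The genes were chosen by their known roles and by the measured FPKM difference between the groups, since SNAI3 was included because it was higher after ARHGEF2 knockdown, so the differences of the 10 genes are given as descriptions without p-values. EMT is the programme by which epithelial cells loosen their contacts and gain motility. SNAI, ZEB and TWIST proteins bind short DNA letters called E-boxes, and SNAI and ZEB proteins thereby repress CDH1, which encodes E-cadherin, the adhesion protein of epithelial adherens junctions. A loss of E-cadherin beside a gain of N-cadherin, the product of CDH2, is known as the cadherin switch, and vimentin, the product of VIM, is the filament protein most often used to mark mesenchymal cells.

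The study sequenced poly(A) RNA of cells labelled HepG2, an established human liver cancer line, in 6 libraries. The 3 shNC libraries came from cells with the control hairpin, with the genotype given as WT, and the 3 shARHGEF2 libraries came from cells in which lentivirus was used to knock down ARHGEF2, a guanine nucleotide exchange factor that activates the small GTPase RhoA. The comparison asked which genes differ in expression when ARHGEF2 is reduced. Whether 1 hairpin or several was used in the 3 shARHGEF2 libraries is not stated in the labels, and nothing says that the libraries of a group came from separate cultures, so the p-values below measure the spread between these libraries, which may be technical. In bulk RNA, fewer cells expressing a gene and less RNA per cell cannot be told apart.

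Values are FPKM, mapped fragments scaled to transcript length and to library size, so that levels could be compared between genes. ARHGEF2 itself was listed at 13.0, 14.4 and 13.9 FPKM in shNC and at 4.25, 4.0 and 4.82 FPKM in shARHGEF2, a log2 difference of -1.47 (SE 0.11, adjusted p = 0.00244, limma with Benjamini-Hochberg adjustment). Libraries held roughly 19700000 to 22950000 read pairs, a crude estimate from the spacing of low values, of which only 37.7% to 39.7% came within 0.1 of a whole number of pairs at the best spacing, with 20% by chance. Of 18 hepatocyte markers, 11 had a row, and only VTN reached 1 FPKM, at 5.51 to 5.55 FPKM in shNC and 6.26 to 6.6 FPKM in shARHGEF2. AFP reached at most 0.0703 FPKM, APOA1 0.248 FPKM, SERPINA1 0.0103 FPKM and HNF4A 0.0956 FPKM. These hepatocyte genes were thus at or near 0 in all 6 libraries, which goes against the label of HepG2 as a hepatoma cell. ALB, AHSG, APOB, APOH, TTR, TF and FGB had no row, so no level was seen for them. The identity of the cells was not tested, and the levels below, those of CDH1, VIM and EPCAM among them, are levels in cells labelled HepG2. The summed level of the 11 hepatocyte markers with a row was 6.02 to 6.24 FPKM in shNC and 6.72 to 7.7 FPKM in shARHGEF2, and its part in the results was not tested.

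The members spanned a wide range, with a mesenchymal filament gene at the top and E-cadherin at the bottom. VIM had a mean of 145 FPKM over the 6 libraries, which placed it between percentiles 98.5 and 99.3 of the listed genes in every library. SNAI1 followed with 14.4 FPKM, then CDH2 with 6.71 FPKM and TWIST1 with 6.6 FPKM. SNAI2 (1.47 FPKM), SNAI3 (1.32 FPKM) and CDH3 (0.951 FPKM) formed a lower tier. ZEB1 (0.316 FPKM), ZEB2 (0.173 FPKM) and CDH1 (0.00995 FPKM) lay under the minimum mean of 0.5 FPKM set for testing. VIM was above SNAI1, TWIST1 above SNAI2, CDH3 above ZEB1 and ZEB2 above CDH1 with no overlap of their ranges over the libraries. The ranges overlapped for CDH2 and TWIST1 and for ZEB1 and ZEB2, over all libraries and within each group. Within single libraries, CDH2 was above TWIST1 in only 2 of 6, so their order was not settled. ZEB1 was above ZEB2 in 6 of 6 libraries, so their overlap came from differences between libraries. The ranges of SNAI2 and SNAI3 and of SNAI3 and CDH3 overlapped only when both groups were pooled. In shARHGEF2 SNAI1 (17.9 to 19.7 FPKM) lay above CDH2 (4.98 to 7.92 FPKM), and in shNC its range of 8.33 to 11.9 FPKM overlapped that of CDH2, 5.52 to 9.84 FPKM. Within shNC the order ran SNAI2, CDH3, SNAI3 without overlap, whereas in shARHGEF2 SNAI3 came above SNAI2 and CDH3, again without overlap, and SNAI2 and CDH3 overlapped.

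**Figure D1:**
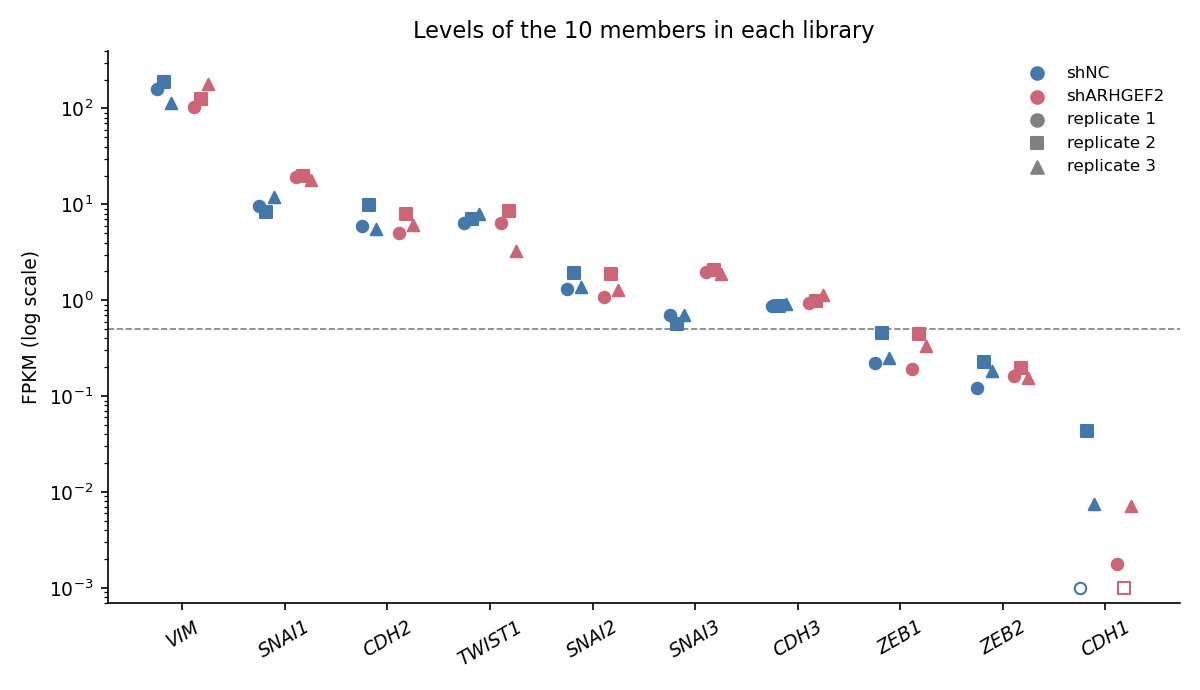
FPKM on a log axis of the 10 genes in each of the 3 shNC and 3 shARHGEF2 libraries, ordered by their mean; symbols mark the replicate, hollow symbols at the bottom mark a value listed at 0, and the dashed line is the 0.5 FPKM minimum. VIM lay between 104 and 188 FPKM in every library, CDH1 at no more than 0.0433 FPKM, and the groups stood clearly apart for SNAI1 and SNAI3.

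SNAI1 and SNAI3 were higher in all 3 shARHGEF2 libraries than in any shNC library, whereas SNAI2 was not. SNAI1 (ENSG00000124216), which encodes Snail, the founding repressor of CDH1 in this family, was listed at 9.58, 8.33 and 11.9 FPKM in shNC and at 19.1, 19.7 and 17.9 FPKM in shARHGEF2. The groups did not overlap, and the lowest knockdown library lay well above the highest control library. The means were 9.92 ± 1.79 and 18.9 ± 0.944 FPKM (SD, n = 3 each), a ratio of 1.9 and a fitted difference of 0.88 (SE 0.13) on the log2(FPKM + 1) scale. In rank among the listed genes, SNAI1 lay between percentiles 85.0 and 88.4 in shNC and between percentiles 91.4 and 92.1 in shARHGEF2.

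SNAI3 (ENSG00000185669), a zinc finger paralog that is less studied than Snail and Slug, was listed at 0.699, 0.568 and 0.703 FPKM in shNC and at 1.96, 2.09 and 1.89 FPKM in shARHGEF2. These groups were also apart, and the spread within each was small. The means were 0.657 ± 0.0767 and 1.98 ± 0.104 FPKM (SD, n = 3 each), a ratio of 3.01. The fitted difference was 0.85 (SE 0.11) on the log2(FPKM + 1) scale, which understates the change of a gene at this level, and 1.46 with a pseudocount of 0.1 in place of 1.

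SNAI2 (ENSG00000019549), which encodes Slug, was listed at 1.3, 1.91 and 1.37 FPKM in shNC and at 1.07, 1.87 and 1.28 FPKM in shARHGEF2. The groups overlapped, and replicate 2 was the highest library in both. The means were 1.53 ± 0.332 and 1.41 ± 0.414 FPKM, with a fitted difference of -0.08 (SE 0.16). Leaving out 1 library at a time moved this difference between -0.21 and 0.03, so its sign rested on single libraries (0.03 without shNC replicate 2 and without shARHGEF2 replicate 1).

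The makeup of the family differed accordingly. The 3 SNAI genes summed to 11.6, 10.8 and 13.9 FPKM in shNC and to 22.1, 23.7 and 21.0 FPKM in shARHGEF2. SNAI1 supplied most of the sum in every library, between 77.1% and 85.1% in shNC and between 83.3% and 86.3% in shARHGEF2, and these ranges overlapped. SNAI3 supplied 6.04%, 5.26% and 5.04% in shNC and 8.85%, 8.84% and 8.99% in shARHGEF2. SNAI2 supplied 11.2%, 17.7% and 9.84% in shNC against 4.85%, 7.89% and 6.09% in shARHGEF2, so both minor members changed places without overlap of the groups. A share moves with the sum, which was higher in shARHGEF2, and the FPKM of SNAI2 itself overlapped between the groups. The ratio of SNAI1 to SNAI3 was between 13.7 and 16.9 in shNC and between 9.42 and 9.75 in shARHGEF2, and SNAI3 was thus higher by the larger factor of the pair.

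**Figure D2:**
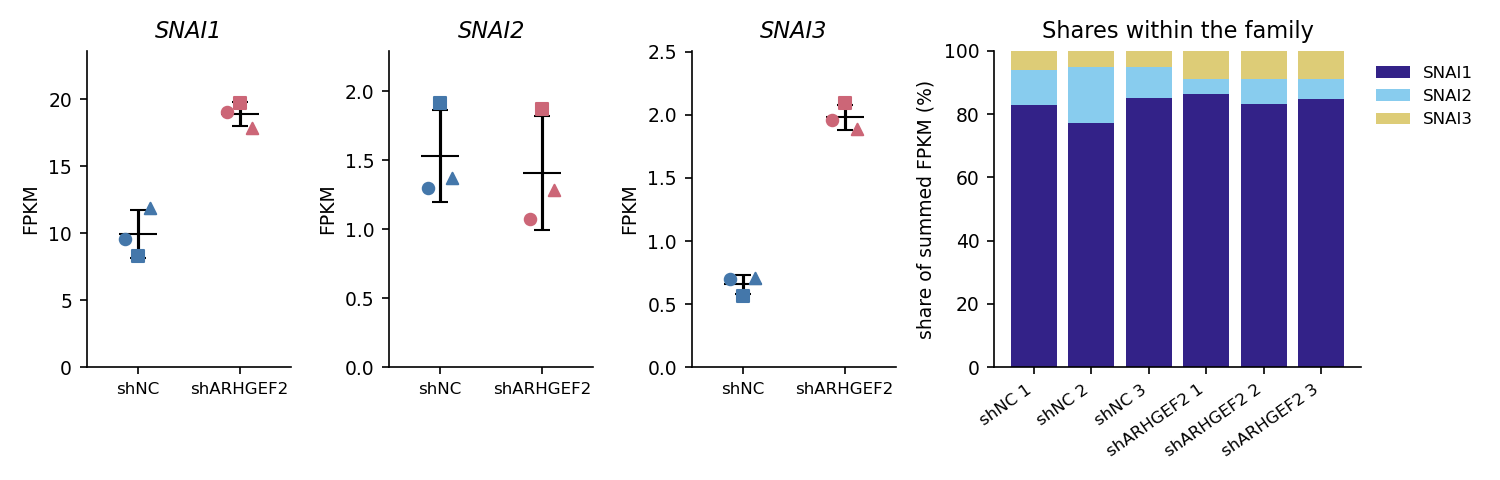
Left, FPKM of SNAI1, SNAI2 and SNAI3 by group, with symbols for the replicates and bars for the mean ± SD of 3 libraries; right, the share of each gene in the summed FPKM of the family in every library. SNAI1 and SNAI3 were apart between the groups and SNAI2 overlapped, while the share of SNAI3 went from 5.45% ± 0.524 to 8.89% ± 0.0797 and that of SNAI2 from 12.9% ± 4.17 to 6.28% ± 1.53.

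SNAI1 and SNAI3 rested on rows with 1 transcript each, the only transcript that GENCODE 29 gives them, so that no choice of isoform entered their values. At the crude estimate of depth, SNAI1 stood for about 310 to 394 read pairs in shNC and 643 to 718 in shARHGEF2, but SNAI3 for only 21.7 to 27.4 and 67.8 to 78.3 pairs. Of the genes beside SNAI3 on chromosome 16, MVD, a mevalonate pathway enzyme, had means of 16.6 ± 3.52 and 22.5 ± 1.52 FPKM with no overlap of the groups, and RNF166 had means of 5.76 ± 0.386 and 5.34 ± 0.365 FPKM with overlap. SNAI3-AS1, the antisense partner of SNAI3, was listed at 0.248, 0.206 and 0.154 FPKM in shNC and at 0.326, 0.273 and 0.259 FPKM in shARHGEF2. The libraries kept strand, but whether the counting used it is not given in the sources used here, so reads of SNAI3 and SNAI3-AS1 where they overlap may not have been told apart. RNF114, next to SNAI1 on chromosome 20, had means of 9.07 ± 0.716 and 10.2 ± 1.19 FPKM with overlap.

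SNAI3 had the highest GC content of the 10 genes, 65.4% over its longest listed transcript, and SNAI1 the next, 58.2%. Libraries differed in how their values ran with GC content. The mean deviation of the 20% of genes with the lowest GC content from their 6-library mean, on the log2(FPKM + 1) scale, was -0.104, 0.163 and -0.032 in shNC and -0.185, 0.137 and 0.021 in shARHGEF2, so that replicate 2 was the highest library of each group. For the 20% with the highest GC content it was -0.002, -0.101 and 0.019 in shNC and 0.1, -0.021 and 0.005 in shARHGEF2, and the part of this in the values of SNAI1 and SNAI3 was not tested. With the GC trend of each library removed, an alternative chosen after the data were seen, the differences were 0.83 for SNAI1 and 0.78 for SNAI3.

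TWIST1 and both ZEB genes did not separate the groups. TWIST1 (ENSG00000122691), a basic helix-loop-helix factor, was listed at 6.45, 7.12 and 7.97 FPKM in shNC and at 6.38, 8.44 and 3.25 FPKM in shARHGEF2. The groups overlapped, and shARHGEF2 held both the highest and the lowest of the 6 libraries. The means were 7.18 ± 0.764 and 6.02 ± 2.61 FPKM, with a fitted difference of -0.29 (SE 0.27) that came to 0.03 without shARHGEF2 replicate 3. Its paralog TWIST2, named after its values were seen, was the more abundant of the pair at 25.0, 22.9 and 23.1 FPKM in shNC and 22.6, 22.4 and 20.4 FPKM in shARHGEF2. The TWIST2 groups were barely apart, and its difference of -0.12 (SE 0.09) had an adjusted p of 0.640 by limma.

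ZEB1 (ENSG00000148516), which encodes a zinc finger and homeodomain repressor of epithelial genes, was listed at 0.222, 0.457 and 0.25 FPKM in shNC and at 0.191, 0.44 and 0.337 FPKM in shARHGEF2. Its relative ZEB2 (ENSG00000169554) was listed at 0.122, 0.226 and 0.181 FPKM in shNC and at 0.161, 0.196 and 0.154 FPKM in shARHGEF2. Both genes overlapped between the groups and lay under the minimum mean of 0.5 FPKM, so they were not tested. For both, replicate 2 was the highest library of each group. Of the sum over the 6 transcription factors, SNAI1 made up 50.0% ± 4.56 in FPKM in shNC and 66.1% ± 5.95 in shARHGEF2, and TWIST1 made up 36.4% ± 1.68 and 20.3% ± 6.51 (SD, n = 3 each). These shares move with the sum, which was 19.8 ± 2.22 FPKM in shNC and 28.8 ± 3.99 FPKM in shARHGEF2. The FPKM of TWIST1 itself overlapped between the groups.

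Since SNAI and ZEB proteins bind the E-box CAGGTG, whose other strand reads CACCTG, the promoters of the members were searched for both spellings. Windows from 250 bases before to 50 bases after a start site were found for 4 members in RefSeq on GRCh38.p14, 7 windows for ZEB1, 2 for CDH2 and 1 each for ZEB2 and VIM. The promoters of SNAI1, SNAI2, SNAI3, TWIST1, CDH1 and CDH3 were not analysed here. Of the 11 windows, 2 held the letters, both of ZEB1, and 20.6% of all 35116 windows held them. The upstream parts of a ZEB1 window with the letters and of the VIM window, the member with the highest level, which lacked them, are printed as a contrast, with the E-box in capitals. The first is chr10:31318167-31318416 on the + strand, with its E-box at position -57 from the start site, and the second is chr10:17227991-17228240 on the + strand. A match is a description of these letters and not a binding site.
ZEB1: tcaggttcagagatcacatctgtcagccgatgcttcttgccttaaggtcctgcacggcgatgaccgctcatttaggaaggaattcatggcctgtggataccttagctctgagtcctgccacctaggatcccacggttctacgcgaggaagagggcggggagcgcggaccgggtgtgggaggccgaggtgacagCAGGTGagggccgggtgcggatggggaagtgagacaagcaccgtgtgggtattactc
VIM: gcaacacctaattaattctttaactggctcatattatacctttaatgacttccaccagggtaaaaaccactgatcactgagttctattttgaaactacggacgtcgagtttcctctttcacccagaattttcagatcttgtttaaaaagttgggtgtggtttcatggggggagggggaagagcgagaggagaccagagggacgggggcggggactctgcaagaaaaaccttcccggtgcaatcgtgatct

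E-cadherin RNA was at or near 0 in every library, and N-cadherin was the main cadherin of the 3 in both groups. CDH1 (ENSG00000039068) was listed at 0, 0.0433 and 0.00748 FPKM in shNC and at 0.0018, 0 and 0.00714 FPKM in shARHGEF2. By the same crude estimate these values stood for 4.66 read pairs at most, in shNC replicate 2. The other values above 0 came to 0.719, 0.175 and 0.799 pairs, less than 1 pair each, so the estimate is not exact for this gene. No fold was computed, and a difference was not detectable at this depth. The row of CDH1 held 1 of the 14 transcripts of GENCODE 29. Among genes with 5 or more GENCODE transcripts, those under 0.1 FPKM listed 21.9% of them and those of at least 10 FPKM 84.5%.

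CDH2 (ENSG00000170558) was listed at 5.94, 9.84 and 5.52 FPKM in shNC and at 4.98, 7.92 and 6.09 FPKM in shARHGEF2. The groups overlapped, and replicate 2 was again the highest library of each. The means were 7.1 ± 2.38 and 6.33 ± 1.48 FPKM with a fitted difference of -0.13 (SE 0.22), which lay between -0.28 and 0.1 with 1 library left out and was above 0 without shNC replicate 2 (0.1) and without shARHGEF2 replicate 1 (0.01). CDH2 supplied 85.8% to 91.5% of the summed FPKM of the 3 cadherins in shNC and 84.2% to 88.8% in shARHGEF2, and CDH1 at most 0.403% in any library.

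CDH3 (ENSG00000062038), which encodes P-cadherin and lies beside CDH1 on chromosome 16, was listed at 0.864, 0.874 and 0.909 FPKM in shNC and at 0.933, 0.994 and 1.14 FPKM in shARHGEF2. The groups did not overlap, but the highest control and the lowest knockdown library were close. The means were 0.882 ± 0.0235 and 1.02 ± 0.104 FPKM, a ratio of 1.16, with a fitted difference of 0.1 (SE 0.1) that was no larger than its error. With 1 library left out this difference lay between 0.06 and 0.13, and its sign could not change because the groups did not overlap.

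VIM (ENSG00000026025) was listed at 158, 188 and 115 FPKM in shNC and at 104, 125 and 179 FPKM in shARHGEF2. The groups overlapped over most of their range. The means were 154 ± 37.1 and 136 ± 38.5 FPKM, with a fitted difference of -0.18 (SE 0.25) that lay between -0.39 and -0.01 with 1 library left out. Beside the keratin gene KRT8, an epithelial filament, VIM stood at 0.781 to 1.17 times its level over the 6 libraries, so that both kinds of filament gene were abundant. The ratio of VIM to CDH2 was between 15.8 and 29.4.

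**Figure D3:**
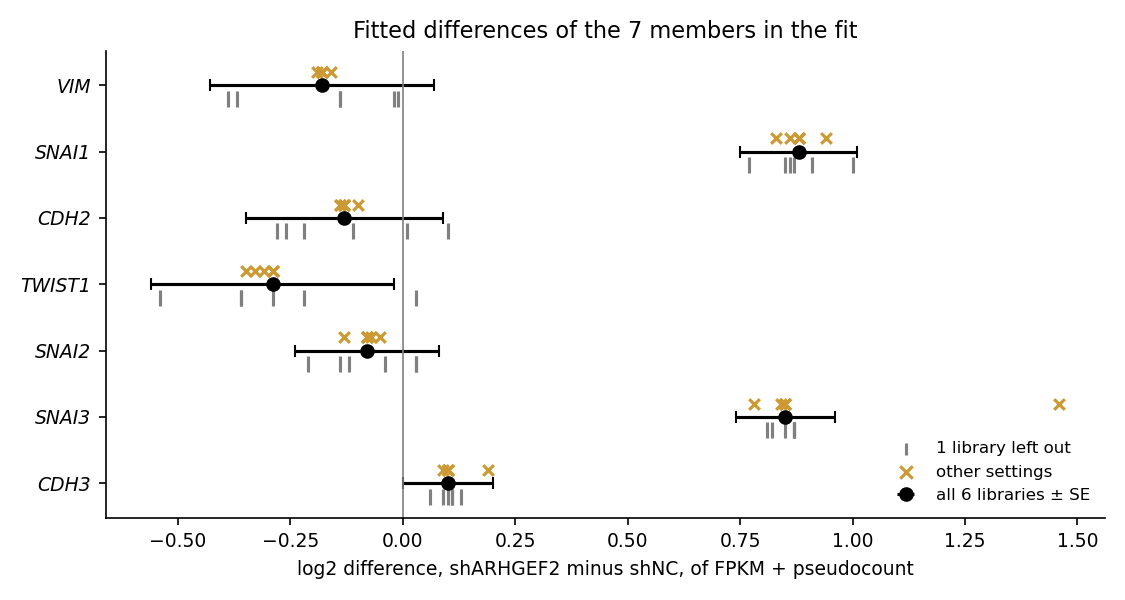
Fitted log2 differences, shARHGEF2 minus shNC, of the 7 genes whose mean reached 0.5 FPKM; points with bars give the fit on all 6 libraries ± SE, ticks the fits with 1 library left out and crosses the other settings. With 1 library left out SNAI1 lay at 0.77 to 1.00 and SNAI3 at 0.81 to 0.87. Their sign could not change, since their groups did not overlap. SNAI2, TWIST1 and CDH2 lay on both sides of 0.

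Of the 10 members, 7 reached the minimum mean of 0.5 FPKM, and the groups did not overlap for 3 of these, all higher in shARHGEF2, beside 11.3% of all 12291 genes tested that were higher without overlap, 9.17% that were lower and 20.5% in either direction. Of the 7, 2 were called at an adjusted p under 0.05 by limma, SNAI1 and SNAI3, beside 0.277% of all genes tested (34 genes, of which 24, or 0.195%, were higher and 10, or 0.0814%, were lower). Because the list was made with this contrast in view, nothing is read from these counts. The number of genes called moved with single libraries, from 6 without shARHGEF2 replicate 3 to 102 without shNC replicate 3, with 13 to 15 without any other library. SNAI1 and SNAI3 were each called in 1 of these 6 fits, that without shNC replicate 3, and nothing is read from this either.

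The libraries within a group also differed in a pattern shared by several members. SNAI2, ZEB1, ZEB2 and CDH2, the 4 members with the lowest GC content, were highest in replicate 2 of both groups. Their GC content was 41.4%, 38.5%, 39.1% and 45.0%. The same libraries had the highest mean deviation of all low-GC genes, and the part of this in the members' values was not tested. TWIST1 departed from the others in shARHGEF2 replicate 3, where it lay 0.794 below its 6-library mean on the log2(FPKM + 1) scale, and VIM was highest in replicate 2 of shNC but in replicate 3 of shARHGEF2.

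**Figure D4:**
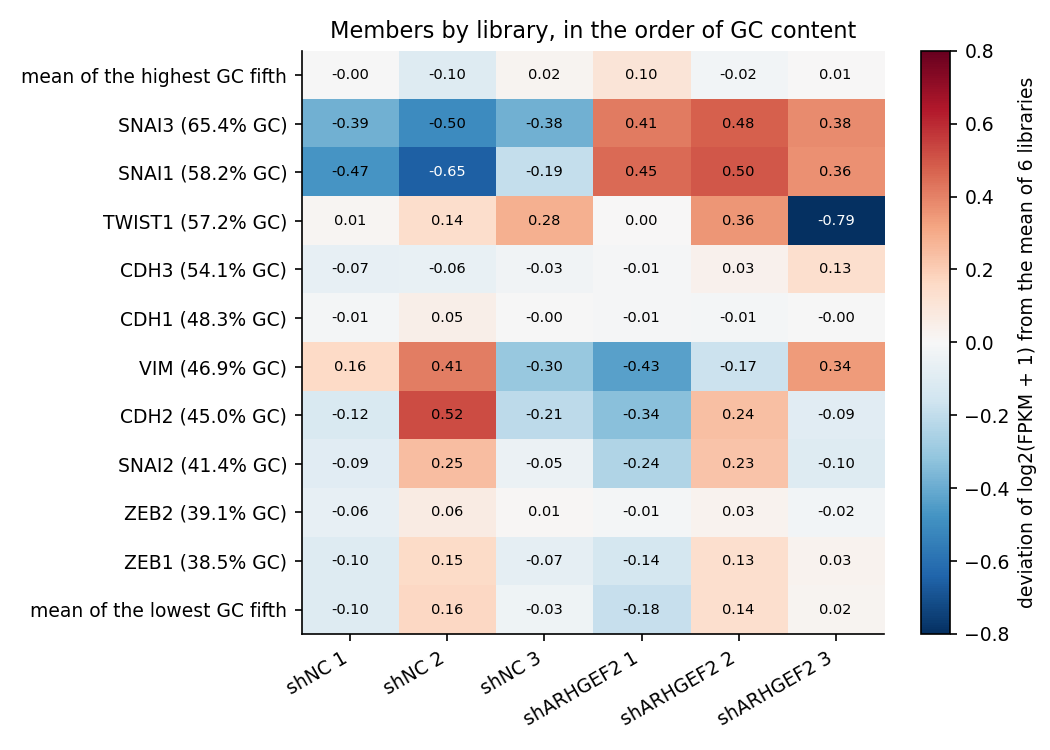
Deviation of log2(FPKM + 1) from the mean of the 6 libraries for each member, ordered by GC content, between the mean deviations of the 20% of tested genes with the highest and with the lowest GC content. SNAI1 and SNAI3 were below their mean in all 3 shNC libraries and above it in all 3 shARHGEF2 libraries, while SNAI2, ZEB1, ZEB2 and CDH2 were highest in replicate 2 of each group.

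For the 6 members whose mean reached 1 FPKM, the genes most similar in profile were sought among 5449 genes of at least 5 FPKM, by Pearson's r of log2(FPKM + 1) over the 6 libraries. With 6 points that share libraries, depth and base composition, the highest of so many coefficients is a description only. Group differences were kept in r, so for SNAI1 and SNAI3 the search favoured genes apart between the groups in the same direction. SNAI1 was followed most closely by PANX2 (r = 0.998) and XYLT2 (r = 0.998), and SNAI3 by GPKOW (r = 0.994) and IL11 (r = 0.993). IL11, an interleukin, was listed at 8.44, 6.9 and 9.4 FPKM in shNC and 23.5, 22.7 and 23.2 FPKM in shARHGEF2, so it was apart between the groups like SNAI3. SNAI2 was followed by HSDL2 (r = 0.989) and TMEM165 (r = 0.979), CDH2 by HSPA8 (r = 0.994) and CSE1L (r = 0.993), and VIM by PTGES3 (r = 0.99) and MRPS23 (r = 0.99). TATDN2 (r = 0.978) and PITPNB (r = 0.976) followed TWIST1 and were also lowest in shARHGEF2 replicate 3, at 4.26 and 3.32 FPKM.

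The wider EMT machinery was described with 9 companion lists of 169 genes in all, of which 112 were tested. None of the 112 was called by limma, beside 0.277% of all genes, and 13 (11.6%) had an unadjusted p under 0.05 beside 13.7% of all genes. Their differences were positive for 57 and negative for 55, with a median of 0.0 beside -0.002 over all genes. Values below are means ± SD in shNC and shARHGEF2, n = 3 each, and adjusted p-values are over all 12291 genes by limma.

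Among the regulators, none of the 10 other EMT-linked transcription factors tested was called, and their median log2 difference was 0.02. ID1 and ID3, which bind helix-loop-helix factors without binding DNA, were the most abundant, with ID1 at 466 ± 31.7 and 447 ± 68.5 FPKM and ID3 at 201 ± 26.8 and 192 ± 13.6 FPKM. FOXQ1, a forkhead factor, had the smallest p of this list at 3.27 ± 0.174 and 1.97 ± 0.29 FPKM, a difference of -0.53 (SE 0.12, adjusted p = 0.127). Of the 19 corepressors and chromatin partners of SNAI and ZEB proteins tested, 0 were called and 0 had an unadjusted p under 0.05. Their differences were negative for 15 and positive for 4, with a median of -0.06, beside 6189 negative and 6102 positive over all genes tested. LOXL2, a lysyl oxidase, was listed at 128 ± 10.7 and 119 ± 0.413 FPKM, and RING1, a Polycomb ubiquitin ligase, at 50.5 ± 2.31 and 49.6 ± 2.97 FPKM. The smallest p was that of AJUBA, a LIM-domain partner of Snail, at 9.22 ± 1.59 and 7.49 ± 0.0924 FPKM (difference -0.26, adjusted p = 0.422).

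Of the 15 regulators of SNAI protein stability tested, 0 were called and 1 had an unadjusted p under 0.05, with a median of 0.0. That gene was USP27X, a deubiquitinase, at 1.04 ± 0.186 and 0.686 ± 0.0969 FPKM (difference -0.28, adjusted p = 0.351). The kinase GSK3A, which belongs to the family that marks Snail for degradation, was listed at 23.0 ± 2.25 and 24.3 ± 1.23 FPKM, with a difference of 0.08 (adjusted p = 0.794), and CSNK1E, a casein kinase, at 32.5 ± 3.7 and 36.1 ± 0.467 FPKM (difference 0.16, adjusted p = 0.553). Of the 7 factors of the epithelial state tested, 0 were called and 2 had an unadjusted p under 0.05, 1 in each direction, with a median of 0.06. ELF3, an epithelial ETS factor, was listed at 19.2 ± 2.3 and 23.9 ± 1.84 FPKM (difference 0.31, adjusted p = 0.283), and KLF5 at 27.2 ± 3.85 and 26.9 ± 2.36 FPKM.

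On the adhesion side, only 2 of 20 other cadherins reached the minimum for testing, CDH24 and CDH13. CDH24 was listed at 12.9 ± 1.24 and 17.8 ± 0.992 FPKM, with a difference of 0.44 (SE 0.11, adjusted p = 0.136), and its groups did not overlap. It thus lay above CDH2 in every library. CDH13, a cadherin held at the membrane by a lipid anchor, was listed at 2.1 ± 0.466 and 2.03 ± 0.152 FPKM (difference -0.02, adjusted p = 0.974). Of the 14 catenins, nectins and other adherens junction partners, 0 were called and 0 had an unadjusted p under 0.05, with a median of 0.05. JUP, or plakoglobin, was listed at 159 ± 13.3 and 157 ± 17.4 FPKM, NECTIN2 at 47.0 ± 1.85 and 49.5 ± 2.68 FPKM, and NECTIN4, the gene with the smallest p, at 0.734 ± 0.248 and 1.13 ± 0.217 FPKM (adjusted p = 0.387).

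Among the 10 other non-keratin filament genes and linkers tested, 0 were called, 2 had an unadjusted p under 0.05, and the median was 0.06. NES, which encodes the filament protein nestin, was listed at 10.4, 11.2 and 11.3 FPKM in shNC and at 17.4, 15.8 and 17.4 FPKM in shARHGEF2. Its groups were apart, and its difference of 0.58 (SE 0.10) narrowly missed the threshold at an adjusted p of 0.0542. Of the alternatives, NES passed the threshold only with a minimum of 1 FPKM in 3 or more libraries (adjusted p = 0.0454) and with the GC trend removed (adjusted p = 0.0469). The latter was chosen after the data were seen. Under every other alternative, each fit with 1 library left out among them, NES was not called. LMNA, a nuclear lamin, was listed at 104 ± 6.17 and 109 ± 6.69 FPKM, and PLEC, the linker plectin, at 74.9 ± 13.4 and 84.1 ± 5.89 FPKM.

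Of the 15 mesenchymal genes tested, 0 were called and 2 had an unadjusted p under 0.05, 1 in each direction, with a median of -0.04. S100A4, a calcium-binding protein of motile cells, was listed at 909 ± 61.8 and 822 ± 9.7 FPKM (adjusted p = 0.484) and COL5A1, a fibrillar collagen, at 94.2 ± 8.12 and 88.1 ± 3.86 FPKM (adjusted p = 0.720). COL1A1 had the smallest p at 6.37 ± 0.39 and 8.66 ± 0.816 FPKM (difference 0.39, adjusted p = 0.188). The summed level of the 19 listed mesenchymal genes was 1120 to 1200 FPKM in shNC and 1050 to 1070 FPKM in shARHGEF2. These sums did not overlap, but without S100A4, which was not called, the other 18 genes summed to 221 to 264 FPKM in shNC and 234 to 247 FPKM in shARHGEF2, with overlap.

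Of the 20 epithelial genes tested, 0 were called and 3 (15.0%) had an unadjusted p under 0.05, beside 13.7% of all genes tested. The differences of these 3 were positive, as were those of 996 of the 1678 such genes among all 12291. The median was 0.12, beside -0.002 over all genes. KRT18 was listed at 164 ± 16.1 and 187 ± 26.8 FPKM (adjusted p = 0.570) and its filament partner KRT8 at 172 ± 30.0 and 135 ± 30.0 FPKM (adjusted p = 0.438). TJP3, a tight junction scaffold, had the smallest p at 2.66 ± 0.473 and 4.58 ± 0.267 FPKM (difference 0.61, SE 0.13, adjusted p = 0.117). The summed level of the 27 epithelial genes was 517 to 603 FPKM in shNC and 506 to 590 FPKM in shARHGEF2, with overlap. EPCAM was listed at no more than 0.0547 FPKM in any library, so keratins of simple epithelia were abundant beside near-zero EPCAM and CDH1.

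**Figure D5:**
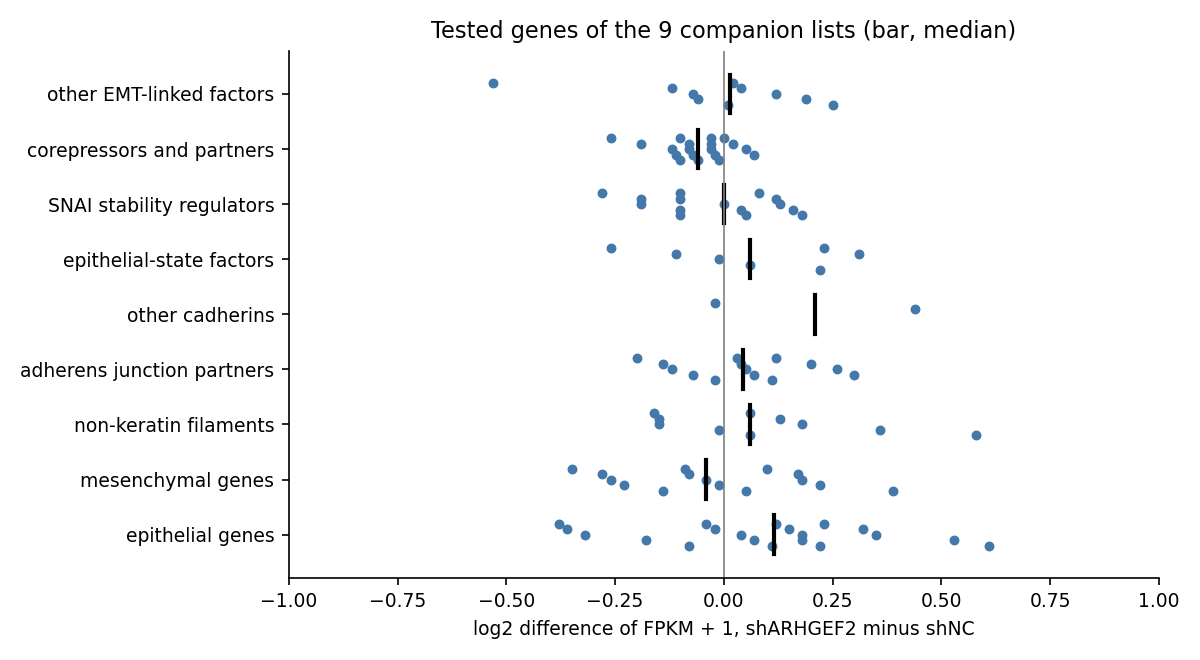
Log2 differences of FPKM + 1, shARHGEF2 minus shNC, of the 112 tested genes in the 9 companion lists, 1 point per gene with a black bar at each list's median. All genes lay between -0.53 and 0.61, and the medians lay between -0.06 and 0.21, the latter over 2 genes.

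Of 10 endothelial and leukocyte markers, 9 had a row and 1 reached a mean of 1 FPKM, CD68, a lysosomal protein, at 77.0 ± 14.6 and 78.8 ± 5.86 FPKM. PECAM1, the other gene tested, was listed at 0.583 ± 0.0385 and 0.81 ± 0.0471 FPKM (adjusted p = 0.438). The summed level of these 9 genes was 61.3 to 88.7 FPKM in shNC and 76.2 to 86.5 FPKM in shARHGEF2, with overlap, and its part in the members' values was not tested.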

How the data were processed

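Per the labels, poly(A) RNA was sequenced in paired ends with adapters that carried molecular identifiers. The submitters' processing notes name cutadapt 1.9, HISAT2 2.0.4, UMI-tools, StringTie 1.3.4d, DESeq2, edgeR and the build hg19. The annotation release is not given in the sources used here. The authors deposited FPKM values for 27605 genes, with 1 column per library. Their own columns of fold changes and p-values were not used. Values near 0 did not give whole read pairs (37.7% to 39.7% lay within 0.1 of a whole number, with 20% by chance), so no count test was run.

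Differences were fitted with limma 3.58.1 (statmod 1.5.0, R 4.3.3) on log2(FPKM + 1), with a mean-variance trend and robust variances, for the 12291 genes whose mean over 6 libraries reached 0.5 FPKM. Genes were called at a Benjamini-Hochberg adjusted p under 0.05. The method was tested on simulated data. GC content was taken from GENCODE 29 transcripts, and tables and plots were made with Python 3.11.15, pandas 2.3.3, numpy 2.4.6 and matplotlib 3.10.9. The genes named are the 10 members, ARHGEF2, VTN, and from each companion list the 2 with the highest mean FPKM and the 1 with the smallest p. The 2 genes most similar to each member whose mean reached 1 FPKM are named too. TWIST2, EPCAM, the other hepatocyte, endothelial and leukocyte markers, the neighbours and the antisense gene fall outside this rule and were chosen after their values were seen. The members and lists were chosen with earlier results of these data known.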

Additional observations from a re-analysis of the deposited data

How the results depend on the processing

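The alternatives were compared for the 7 members tested, CDH3 having no value with at least 1 FPKM in 3 or more libraries. The differences of SNAI1, SNAI3 and CDH3 were positive and that of VIM negative under every alternative run for them. The replicate block, the filters and the limma variance options leave a fitted difference as it was, so the sign was fixed there for every member. For SNAI1, SNAI3 and CDH3 the groups did not overlap, so neither leaving out 1 library nor the pseudocount could change the sign. Only quantile normalization and the removal of the GC trend could have changed it for these genes. The differences of SNAI2, TWIST1 and CDH2 changed sign with 1 library left out, as given above. The number of genes called moved more: it was 54 with at least 1 FPKM in 3 or more libraries, 19 with quantile normalization, 7 with limma without trend and robust variances, 1 without a filter on low values (2123 at an unadjusted p under 0.05), 59 with the GC trend removed, and between 6 and 102 with 1 library left out. The cause was not tested. Of the companion genes, 1 (NES) was called with at least 1 FPKM in 3 or more libraries and 1 (NES) with the GC trend removed, and 0 with 1 library left out. ARHGEF2 missed the threshold without a filter on low values (-1.47, adjusted p = 0.0701) and lay between -1.53 and -1.42 with 1 library left out. With the replicate number as a block, limma called 0 genes (1976 at an unadjusted p under 0.05), and ARHGEF2 had a difference of -1.47 with an adjusted p of 0.0716. The residuals of same-numbered libraries correlated at 0.184, 0.159 and -0.105. Replicates 1 and 2 correlated best with their own number, and replicate 3 did not. Replicate 2 was also the highest library of each group for genes of low GC content. The labels do not say that same-numbered libraries share a culture, so the main fit used no block, and whether they share more than a number was not tested. SNAI1 and SNAI3 were called neither with the block nor without a filter. SNAI3 but not SNAI1 was called with quantile normalization and with limma without trend and robust variances. The list of members was made with this contrast in view, so nothing is read from these calls. The data hold 3 libraries a group and no counts. ZEB1, ZEB2 and CDH1 lay under the minimum mean of 0.5 FPKM, so they were not in the main fit. Depth limits CDH1, which stood for at most 4.66 read pairs by the crude estimate. No read pairs were estimated for ZEB1 and ZEB2, whose rows list several transcripts.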
